A study of Homo sapiens with 24 samples.

Results

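The mRNAs of 57 genes for cytosolic chaperones and their partners were followed in 4 human cell lines that carry extra chromosomes. They were taken by gene symbol from the 16742 genes named in at least 1 of the 4 deposited comparison tables: heat shock proteins of the HSP90, HSP70, HSP110 and small families, the heat shock factors HSF1 and HSF2, J-domain proteins, the 8 subunits of the chaperonin CCT, the 6 subunits of prefoldin, BAG proteins and cochaperones of HSP90. A few mitochondrial relatives (HSPA9, HSPD1, HSPE1, TRAP1 and DNAJA3) belong to the list and were kept as a class of their own, so that the genes fall into 10 classes. All 57 genes were present in the tables of the HCT116-derived lines and 56 in those of the RPE1-derived lines, where DNAJA4 was not analysed here. Each of them had a mean normalized count of at least 10, the minimum set for the tests.

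Total RNA of each line and of its own parental line was sequenced in 3 libraries per group, 24 libraries and 8 groups in all. HCT116 is a colon carcinoma line with a modal number of 45 chromosomes and RPE1 a retinal pigment epithelial line immortalized with hTERT and with a modal number of 46, both near diploid. HCT116 5/4 carries 4 copies of chromosome 5 and was compared with HCT116. HCT116* 8/3 c7 is trisomic for chromosome 8 and was compared with HCT116*, RPE1 5/3 12/3 is trisomic for chromosomes 5 and 12 and was compared with RPE1, and RPE1* 21/3 is trisomic for chromosome 21 and was compared with RPE1*. The asterisk marks stable expression of histone H2B tagged with GFP, which HCT116* and RPE1* carry as well as the lines made from them. The extra chromosomes were brought in by microcell-mediated transfer, HCT116 5/4 came from another laboratory, chromosome 12 was gained spontaneously in RPE1 5/3 12/3, and c7 names 1 clone grown from 1 cell. The study's list of cell lines gives the same other laboratory for the parental HCT116, while its methods name a culture collection. HCT116* is listed as made from HCT116 of the collection. Each karyotype is thus represented by 1 line, for these mRNA libraries it is not stated that the 3 of a group are separate cultures, and the p-values may measure technical spread only. A change that comes from the extra chromosome and one that comes from the derivation of that line cannot be told apart.

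Each row of a table gives 1 gene with its mean normalized count in the 6 libraries of a comparison, the log2 fold change of the aneuploid line over its parental line, the standard error and the p-values of the authors' DESeq2 Wald test, but no values of single libraries. Values per library could therefore not be shown. The 95% interval of a fold change gives the precision of the estimate and does not show the spread of single libraries. A gene was called higher or lower at an adjusted p under 0.05 together with an absolute log2 fold change above 0.6. "Rose" and "fell" are used only for genes that were called, and ± gives the standard error. The labels state 25000000 reads of 100 bp per library. Of 6 colorectal markers, EPCAM, CDH1, KRT20 and CDX2 were measured in both HCT116 tables and none reached the minimum in the RPE1 tables, in which the mesenchymal genes VIM, FN1 and THY1 were abundant (summed mean of the 5-gene list 558132 and 496612, against 2384.76 and 1631.47 in the HCT116 tables). The retinal markers were weak in RPE1: TYR and TYRP1 were not listed and RPE65 had a mean of 10.4 and 4.58, below the 286.7 and 193.9 of the HCT116 tables, while MITF had 1439 and 1124. The median log2 fold change of all genes tested was between -0.00 and 0.01 in the 4 lines.

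Chaperones bind proteins that are not folded and keep them from aggregating. HSP70 works in cycles of ATP hydrolysis that J-domain proteins start and that HSP110 proteins and BAG proteins end by exchanging the nucleotide. HSP90 receives clients from HSP70 through STIP1 and finishes the folding of kinases and steroid receptors with the help of cochaperones, while prefoldin hands new actin and tubulin chains to the barrel-shaped chaperonin CCT, in which every subunit has a fixed place in the ring. Heat shock factors switch many of these genes on when unfolded proteins accumulate, by binding repeats of a short unit near the start of the gene. Subunits of 1 complex that are made in unequal amounts are a known burden of cells with extra chromosomes.

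The binding sites of heat shock factors are known as runs of GAA and TTC in alternation with any 2 bases between the units. Windows of 300 bases, from 250 before to 50 after a start of each gene, were taken from RefSeq (GRCh38.p14). Where a gene had more than 1 window, a run in any of them counted. Both strands were searched for runs of 3 or more units, with no other motif searched. A run was found in 7 of the 49 genes of the list that have a window (14.3%) and in 166 of 27305 genes with a window (0.608%). BAG4, CCT6A, FKBP4, HSF1, HSPA14, PFDN2, ST13 and STUB1 had no window. The runs of the 7 genes are shown because 4 of these genes (HSP90AB1, DNAJB6, CHORDC1 and HSPA8) are among those called below. Of the genes tested in every line, 25% of the list and 28.8% of all were called in at least 1 line. A link between runs and calls was not tested. Each is written 5′ to 3′ along the strand of its gene, with the run in capitals and the flanking bases in lower case, and each was matched exactly to GRCh37, the build of the study, which gives the position.
HSPD1 (chr2:198364786-198364814, minus strand, 4 units): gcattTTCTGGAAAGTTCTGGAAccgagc
HSP90AB1 (chr6:44215509-44215533, plus strand, 3 units): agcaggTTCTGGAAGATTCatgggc
HSP90AB1 (chr6:44215562-44215586, plus strand, 3 units): agattgTTCTGGAAGCTTCtggatt
DNAJB6 (chr7:157129561-157129585, plus strand, 3 units): agccgaGAACCTTCGCGAAggtggg
DNAJA1 (chr9:33025268-33025292, plus strand, 3 units): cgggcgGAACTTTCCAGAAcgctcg
CHORDC1 (chr11:89956249-89956283, minus strand, 5 units): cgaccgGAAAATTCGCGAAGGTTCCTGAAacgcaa
HSPA8 (chr11:122933056-122933080, minus strand, 3 units): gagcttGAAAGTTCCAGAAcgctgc
HSPA8 (chr11:122932881-122932905, minus strand, 3 units): ggccccTTCTGGAAGGTTCtaagat
HSP90AA1 (chr14:102553451-102553475, minus strand, 3 units): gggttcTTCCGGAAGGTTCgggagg
In the GENCODE annotation the runs of HSP90AB1, DNAJB6 and HSP90AA1 lie in an intron of the gene, those of HSPD1, DNAJA1 and HSPA8 in an exon, and that of CHORDC1 upstream of the gene, and no other gene overlaps them. The windows follow RefSeq starts and not the first base of the GENCODE gene. From that base the stretches shown lie 52561 (HSP90AA1), 16647 (HSPD1), 1606 and 1659 (HSP90AB1), 1486 (DNAJB6) and 858 and 1033 (HSPA8) bases into the gene. CHORDC1 has the longest run shown, and only 4 of the 27305 genes (0.0146%) have a run of 5 or more units. A run is a match of letters and no measured binding, and a window without one says only that these letters are not there.

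In HCT116 5/4, 12 of the 57 genes were called, 6 higher and 6 lower, where 20.6% of all 13887 genes tested were called, 10.8% higher and 9.83% lower. The share of the list (21.1%) was close to that of all genes. Of the 6 that rose, 4 are encoded on the gained chromosome 5: HSPA4, HSPA9, CCT5 and PFDN1. HSPH1 and DNAJB6, on chromosomes 13 and 7, rose as well, and HSP90AB1, TRAP1, BAG1, AHSA1, FKBP5 and CHORDC1 fell. An adjusted p under 0.05 was reached by 13 of the genes, against 21.8% of all genes. Over the whole list 42 of 57 genes lay below 0 and the median log2 fold change was -0.20, although the median of all genes was -0.00. In the same comparison the colorectal markers EPCAM (log2 fold change -2.57), CDH1 (-2.34), KRT20 (-3.26) and CDX2 (-0.43) lay below 0. Of the mesenchymal list VIM (2.74) and FN1 (0.90) lay above 0, and COL1A1 (-0.99) and THY1 (-0.90, at a mean of 3.88) below it. The part of these markers in the changes was not tested. In RNA from whole cultures, less RNA per cell and fewer cells that make it cannot be told apart.

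In HCT116* 8/3 c7 none of the 57 genes was called or reached an adjusted p under 0.05 by the DESeq2 Wald test, and 4 had an unadjusted p under 0.05. Over all 13869 genes 1.8% were called (0.945% higher and 0.858% lower), 3.37% had an adjusted p and 8.81% an unadjusted p under 0.05. The fold changes of the list ran from -0.34 for HSPA2, a testis-enriched HSP70, to 0.38 for the small heat shock protein HSPB8, with a median of 0.03. The 95% intervals of 54 of the 57 genes lay within 0.6 of 0 on the log2 scale, and the widest bounds over the list were -0.67 (HSPA2) and 0.71 (HSPB8). The standard errors of this table have a ceiling, as a prior that draws fold changes toward 0 gives, and undoing it enlarged the fold changes by a median factor of 1.22 over all genes. The bounds above are on the deposited scale.

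In RPE1 5/3 12/3, 4 of the 56 genes rose and none fell, where 16.6% of all 13278 genes were called, 8.13% higher and 8.47% lower. They were HSPA8, the constitutive HSP70 of the cytosol, CCT5, PFDN5 and CHORDC1. An adjusted p under 0.05 was reached by 10 of the genes, all with positive fold changes, against 20.3% of all genes in either direction. Of these 10, 6 lie on the gained chromosomes 5 and 12 and 3 on the long arm of chromosome 11, and the remaining gene is DNAJC7. CCT5 and PFDN5 lie on the gained chromosomes 5 and 12, and HSPA8 and CHORDC1 on the long arm of chromosome 11. That arm was not named as gained by the labels, and its 483 genes tested had a median log2 fold change of 0.40, against -0.03 for genes outside chromosomes 5 and 12. STIP1, the third gene of the list on that arm, had a log2 fold change of 0.51 ± 0.19 (adjusted p = 0.0392). The part of the raised chromosome arm in the values of HSPA8, CHORDC1 and STIP1 was not tested. Over the list 36 genes lay above 0 and 20 below, with a median of 0.17, and the 47 genes off the gained chromosomes had a median of 0.09, with 28 above 0 and 19 below. Of the retinal markers in this comparison MITF (log2 fold change -1.03), BEST1 (-1.23) and RPE65 (-3.27) lay below 0, and RLBP1 (3.35), PMEL (0.72) and SERPINF1 (0.29) above it. Of the mesenchymal ones COL1A1 (-3.18), COL1A2 (-0.82, at a mean of 4.39), FN1 (-0.21) and THY1 (-0.21) lay below 0 and VIM (0.48) above it. The part of these markers was not tested either.

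In RPE1* 21/3 none of the 56 genes was called or reached an adjusted p under 0.05 by the DESeq2 Wald test, and 2 (HSPA2 and CCT8) had an unadjusted p under 0.05. Over all 13101 genes 3.31% were called (1.66% higher and 1.65% lower), 3.37% had an adjusted p and 9.59% an unadjusted p under 0.05. The median of the list was -0.05, with 22 genes above 0 and 34 below. The intervals were wider than in HCT116* 8/3 c7, and those of 34 of the 56 genes lay within 0.6 of 0.

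**Figure D1:**
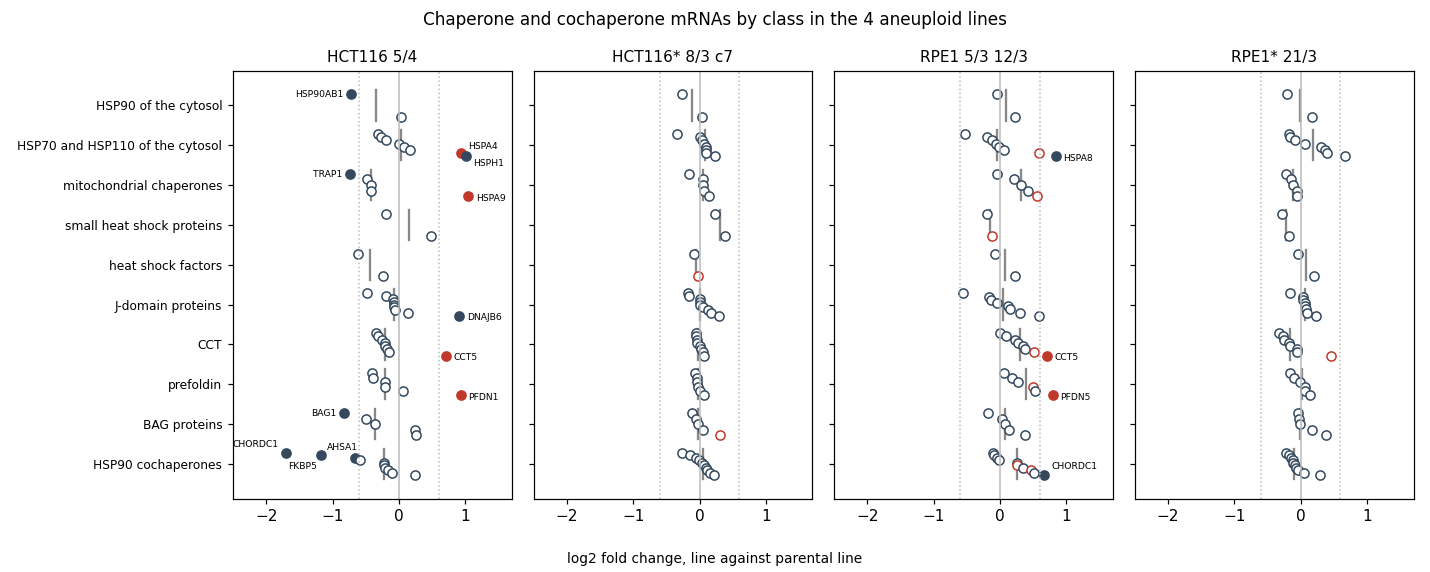
Log2 fold change of each gene over the parental line (horizontal axis) by class (vertical axis) in the 4 lines. Filled points are called, red points are encoded on a gained chromosome of that line, grey bars are class medians and dotted lines the fold thresholds of 0.6. Called genes appear in HCT116 5/4 (12) and RPE1 5/3 12/3 (4) and in neither of the other lines.

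The 16 calls of the 4 lines fell on 14 of the 57 genes. Of the 56 genes tested in every line 14 were called in at least 1 (25%), against 28.8% of the 11939 genes tested in all lines, and 2 in at least 2 lines (3.57%, against 6.47%). These 2 were CCT5 and CHORDC1, CCT5 upward in both and CHORDC1 in opposite directions. Among the 56 genes with a value in all 4 tables, BAG4 and DNAJC7 were above 0 in every line and UNC45A was below 0 in every line, none of them called in any, and DNAJC7 in HCT116* 8/3 c7 passed to the other side of 0 when the fold changes were centred on the genes outside the gained chromosome. The share of all genes on the same side of 0 in every line was not counted, so no trait of these genes is read from it. BAG4 lies on chromosome 8, which is gained in HCT116* 8/3 c7. BAG4 holds back death receptor signalling, DNAJC7 links HSP70 to HSP90, and UNC45A assists the folding of myosin.

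Of the cytosolic HSP90 pair only HSP90AB1 was called, in HCT116 5/4. HSP90AB1, the constitutive form, fell to 0.609 of the parental level (95% interval 0.457 to 0.811), or -0.72 ± 0.21 on the log2 scale (adjusted p = 0.00513). HSP90AA1, the inducible form, had a log2 fold change of 0.03 ± 0.24 in the same line (adjusted p = 0.955). HSP90AB1 stood at -0.26 in HCT116* 8/3 c7, 0.22 in RPE1 5/3 12/3 and -0.20 in RPE1* 21/3, and HSP90AA1 at 0.04, -0.04 and 0.17 in that order, none of them called. Both were among the most abundant mRNAs of the list. Per kb of transcript the 2 genes had mean normalized counts of 26574 (HSP90AB1) and 28857 (HSP90AA1) in the HCT116 5/4 comparison, and 12802 and 10158 in that of RPE1 5/3 12/3.

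Among the 10 HSP90 cochaperones, 3 fell (30%, against 9.83% of all genes) and none rose in HCT116 5/4, and the class median was -0.23 with 9 genes below 0. CHORDC1, a zinc-binding cochaperone also called morgana, had the lowest value of all 57 genes there: its log2 fold change was -1.69 ± 0.28 (adjusted p = 5.94e-08), a level of 0.309 of the parental line (95% interval 0.210 to 0.454). Only 2.64% of all genes tested had a lower value. FKBP5, the cochaperone that lowers hormone binding of steroid receptors, fell by 1.18 ± 0.19 on the log2 scale (adjusted p = 1.59e-08). AHSA1, which activates the ATPase of HSP90, fell by 0.66 ± 0.23 (adjusted p = 0.0215). FKBP4, the immunophilin that promotes receptor activity, had an adjusted p of 0.0479 but a log2 fold change of -0.59, just outside the fold threshold, while AHSA1 and CCT5 (0.70) lay just inside it. The client loaders STIP1 (-0.11), ST13 (-0.16) and CDC37 (-0.21), the last one specific to kinases, were not called. The p23 protein PTGES3 had -0.23 and the ubiquitin ligase STUB1 0.24, neither called.

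In the RPE1-derived line with the same gain of chromosome 5 the class had a median of 0.26, with 6 genes above 0 and 4 below. Without the 2 genes on the gained chromosome 12 the median was 0.12, with 4 on each side. CHORDC1 rose in RPE1 5/3 12/3 by a log2 fold change of 0.67 ± 0.21 (adjusted p = 0.0108), 1.59 times the parental level (95% interval 1.19 to 2.11), just inside the fold threshold. Just outside it lay HSPA4 (0.59, adjusted p = 0.00157) and DNAJC7 (0.59, adjusted p = 0.00464). FKBP5 had 0.35 (adjusted p = 0.152) and AHSA1 -0.10 (adjusted p = 0.834). FKBP4 and PTGES3 lie on the gained chromosome 12, whose 685 genes tested had a median of 0.43, and had log2 fold changes of 0.26 (95% interval -0.16 to 0.68) and 0.46 (0.11 to 0.81). In RPE1* 21/3 and HCT116* 8/3 c7 none of the 10 was called, and the class medians were -0.10 and 0.05.

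In the cytosolic HSP70 class 2 of 8 genes rose in HCT116 5/4 (25%, against 10.8% of all genes). Without the gene on the gained chromosome 5, HSPA4, it was 1 of 7 (14.3%). HSPA4 and HSPH1, HSP110 proteins that exchange the nucleotide of HSP70 and help it take aggregates apart, were the genes that rose. HSPA4 had a log2 fold change of 0.93 ± 0.21 (adjusted p = 9.82e-05) and HSPH1, which is not on the gained chromosome, one of 1.00 ± 0.31 (adjusted p = 0.00759), 2.01 times the parental level (95% interval 1.32 to 3.05). The third HSP110 gene, HSPA4L, had -0.31 (adjusted p = 0.397). HSPA8 stood at -0.00 ± 0.24 (adjusted p = 0.997), so that its 95% interval ran from -0.48 to 0.47 here. The stress-inducible HSPA1A and HSPA1B had -0.19 and -0.27, and neither was called.

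The HSP70 class showed another order in RPE1 5/3 12/3. HSPA8 rose by a log2 fold change of 0.84 ± 0.17 (adjusted p = 2.38e-05), the largest of the 56 genes in that line and 1.78 times the parental level (95% interval 1.41 to 2.26). HSPH1 stood at -0.02 (adjusted p = 0.971) and HSPA4L at 0.05 (adjusted p = 0.940). HSPA8 was also the most abundant of the 56 per kb of transcript in this comparison, with a mean normalized count of 21207 per kb. HSPA1A and HSPA1B had -0.20 and -0.12 in RPE1 5/3 12/3, 0.37 and 0.40 in RPE1* 21/3 and 0.09 and 0.07 in HCT116* 8/3 c7, with no call in any line. The transcripts of this pair share 1666 stretches of 100 bases, 69.5% of those of HSPA1A, so that reads of that length could be given to either and the separate values are uncertain. No other genes of the list share a stretch of read length. HSPE1 has 26 named pseudogenes, HSPD1 18, and HSPA8 and ST13 17 each, which could take up some of their reads.

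The mitochondrial relatives moved apart in HCT116 5/4 too. HSPA9, the HSP70 of the matrix and encoded on chromosome 5, rose by a log2 fold change of 1.04 ± 0.23 (adjusted p = 8.92e-05), the highest of the list in that line. TRAP1, the mitochondrial HSP90, fell by 0.73 ± 0.22 (adjusted p = 0.00795). HSPD1 and HSPE1, the subunits of the matrix chaperonin, stood at -0.42 and -0.48, and the J-domain protein DNAJA3 at -0.42, none of them called. HSPA9 had, in RPE1 5/3 12/3, 0.56 ± 0.17 (adjusted p = 0.00541) and stayed below the fold threshold, HSPD1 had 0.32, HSPE1 0.21 and TRAP1 0.42, and the class median was 0.32. All 5 were below 0 in RPE1* 21/3, between -0.22 and -0.06, and none was called there or in HCT116* 8/3 c7.

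Of the J-domain proteins only DNAJB6, which keeps polyglutamine proteins from aggregating, was called in any line. In HCT116 5/4 that was 1 of 9 (11.1%, against 20.6% of all genes). DNAJB6 rose in HCT116 5/4 by a log2 fold change of 0.91 ± 0.22 (adjusted p = 0.000457), 1.87 times the parental level (95% interval 1.39 to 2.53), and stood at -0.18 in HCT116* 8/3 c7, -0.17 in RPE1 5/3 12/3 and 0.07 in RPE1* 21/3. DNAJA1 and DNAJB1, the main partners of HSPA8 and HSPA1A in the cytosol, had -0.07 and -0.07 in HCT116 5/4 and 0.30 and -0.14 in RPE1 5/3 12/3. DNAJB4 had -0.48 in HCT116 5/4 and -0.56 in RPE1 5/3 12/3, with adjusted p of 0.309 and 0.0769 by the DESeq2 Wald test. Among the BAG proteins BAG1, which joins HSP70 to the proteasome, fell in HCT116 5/4 (-0.83 ± 0.21 on the log2 scale, adjusted p = 0.000624), and BAG3, which sends clients to autophagy, had -0.36 there (adjusted p = 0.291) and between 0.03 and 0.17 in the other lines. BAG2, an inhibitor of STUB1, had -0.50 in HCT116 5/4 (adjusted p = 0.214).

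Neither heat shock factor was called in any line. HSF1, the main factor of the heat response, had -0.24 in HCT116 5/4, 0.23 in RPE1 5/3 12/3 and -0.04 in RPE1* 21/3. HSF2 had -0.61 ± 0.24 in HCT116 5/4, at an adjusted p of 0.053. The small heat shock protein HSPB1 lay between -0.20 and 0.24 in the 4 lines. HSPB8, which works with BAG3, had 0.48 in HCT116 5/4 and, although encoded on the gained chromosome 12, -0.12 (95% interval -0.48 to 0.24) in RPE1 5/3 12/3. Only 10.7% of the genes tested on chromosome 12 had a lower value.

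A subset of 16 genes of the list, named from general knowledge as targets of heat shock factors (HSPA1A, HSPA1B, HSPA8, HSPA4L, HSPH1, DNAJA1, DNAJB1, DNAJB4, HSPB1, HSPD1, HSPE1, HSP90AA1, BAG3, CHORDC1, AHSA1 and STIP1), showed no common call. In HCT116 5/4 1 rose (HSPH1) and 2 fell (CHORDC1 and AHSA1), 18.8% against 20.6% of all genes, 14 of 16 lay below 0 and the median was -0.23. In HCT116* 8/3 c7 none was called (against 1.8%) and 15 of 16 lay above 0, but by little, with a median of 0.08. In RPE1 5/3 12/3 2 rose (HSPA8 and CHORDC1; 12.5% against 16.6%), the 16 were divided evenly around 0 and the median was 0.00. In RPE1* 21/3 none was called (against 3.31%) and the median was 0.07, with 10 above 0. The 7 genes with a run of GAA and TTC units likewise took no common direction. In HCT116 5/4, where 20.6% of all genes were called, DNAJB6 rose and HSP90AB1 and CHORDC1 fell. In RPE1 5/3 12/3, where 16.6% were called, HSPA8 and CHORDC1 rose. CHORDC1, with the longest run, was called in both lines in opposite directions.

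**Figure D2:**
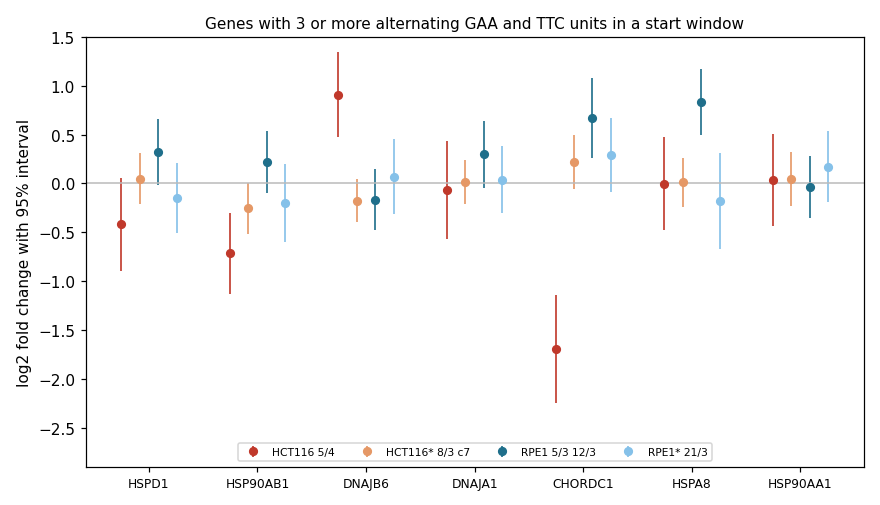
Log2 fold change over the parental line (vertical axis, points with 95% intervals) of the 7 genes with 3 or more alternating GAA and TTC units in the window around their start, in each line (colours). The values of 1 line spread to both sides of 0, from -1.69 (CHORDC1) to 0.91 (DNAJB6) in HCT116 5/4.

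The 8 subunits of CCT are present in equal number in the complex, and in 3 lines the gained chromosome carries 1 or 2 of them. In HCT116 5/4 CCT5 (chromosome 5, 10250041 to 10266501 on GRCh37) rose by a log2 fold change of 0.70 ± 0.22 (adjusted p = 0.011), 1.63 times the parental level (95% interval 1.20 to 2.20). Its 7 partners, on other chromosomes, lay between -0.34 (CCT3) and -0.15 (CCT2) with a median of -0.21, and none was called. The standard deviation over the partners was 0.07, and over all 8 subunits 0.34. The upper bound of the highest partner was 0.27, against a lower bound of 0.26 for CCT5, so the intervals touched. In HCT116* 8/3 c7, where no subunit is encoded on the gained chromosome, all 8 lay between -0.06 and 0.07 with a standard deviation of 0.05.

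Both CCT5 and CCT2 (chromosome 12, 69979206 to 69995350) are on gained chromosomes in RPE1 5/3 12/3. CCT5 rose by 0.70 ± 0.19 (adjusted p = 0.00242), and CCT2 had 0.52 ± 0.18 (adjusted p = 0.0228), short of the fold threshold. The 6 partners lay between -0.01 (CCT3) and 0.37 (CCT4), with a median of 0.25, so the gap between gained and other subunits was narrower than in HCT116 5/4 and the intervals overlapped. In RPE1* 21/3 CCT8 (chromosome 21, 30428126 to 30446118) had 0.45 ± 0.17 and an interval from 0.12 to 0.78, at an unadjusted p of 0.00757 and an adjusted p of 0.153 by the DESeq2 Wald test. Its 7 partners were all below 0, from -0.33 (CCT2) to -0.05 (CCT7), with a median of -0.17. The highest upper bound among these partners was 0.45, above the lower bound of CCT8, so the intervals overlapped. In each of these 3 lines the subunits on gained chromosomes had the highest values of the complex. Per kb of transcript, CCT5 had a mean normalized count of 3887 in the HCT116 5/4 comparison and the other subunits between 3344 (CCT4) and 7375 (CCT3).

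Prefoldin gave the same order in HCT116 5/4. PFDN1 (chromosome 5, 139624620 to 139682698) rose by a log2 fold change of 0.93 ± 0.21 (adjusted p = 7.93e-05), 1.91 times the parental level (95% interval 1.44 to 2.53). Its 5 partners lay between -0.41 (PFDN4) and 0.06 (PFDN5) with a median of -0.21, and the upper bound of PFDN5, 0.46, was below the lower bound of PFDN1, 0.53. In RPE1 5/3 12/3 PFDN5 (chromosome 12, 53689075 to 53693236) rose by 0.79 ± 0.19 (adjusted p = 0.000473). PFDN1 had 0.50 ± 0.17 (adjusted p = 0.0254), and PFDN4, on chromosome 20, reached 0.53 with a wider interval, up to 1.02 (adjusted p = 0.147). The other partners had 0.06 (VBP1), 0.17 (PFDN2) and 0.27 (PFDN6), so that a partner from a chromosome that was not gained stood above the gained PFDN1. No subunit of prefoldin is encoded on chromosome 21 or 8, and the 6 lay between -0.16 and 0.14 in RPE1* 21/3 and between -0.06 and 0.06 in HCT116* 8/3 c7.

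**Figure D3:**
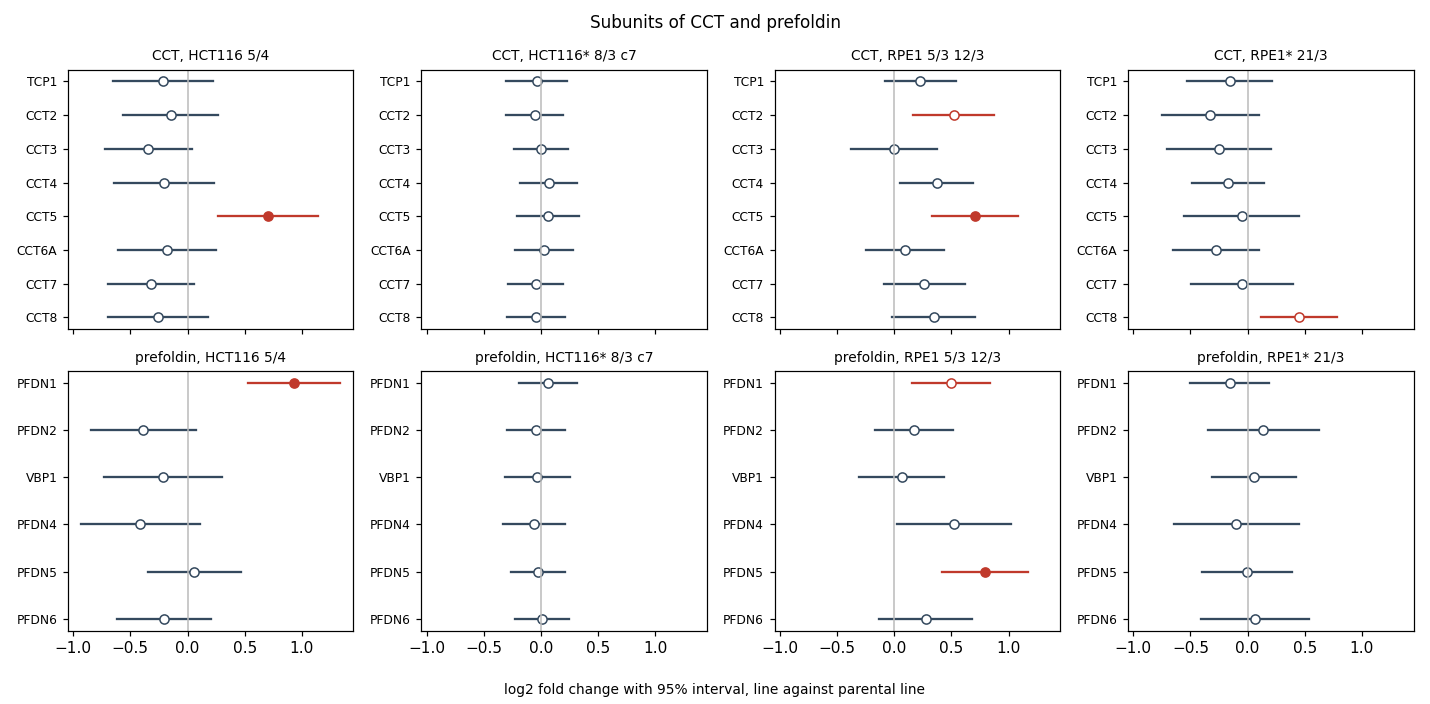
Log2 fold change over the parental line with 95% intervals (horizontal axis) for the 8 subunits of CCT (upper row) and the 6 of prefoldin (lower row) in the 4 lines. Red marks subunits on a gained chromosome and filled points are called. CCT5 and PFDN1 stand to the right of every partner in HCT116 5/4 and CCT8 does so in RPE1* 21/3.

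Over all classes, 4 genes of the list are on the gained chromosome of HCT116 5/4, 2 on that of HCT116* 8/3 c7, 9 on those of RPE1 5/3 12/3 and 1 on that of RPE1* 21/3. In HCT116 5/4 all 4 rose, by 0.70 to 1.04, while the 617 genes tested on chromosome 5 had a median of 0.79, 59.0% were called in either direction, and a change from 2 to 4 copies would be 1 on this scale. The 53 genes of the list outside chromosome 5 had a median of -0.21, with 2 higher, 6 lower and 42 below 0, against a median of -0.02 and 18.9% called for all genes outside it. In RPE1 5/3 12/3 the 4 genes on chromosome 5 had 0.50 to 0.70 (median of the 619 genes tested there 0.53), and the 5 on chromosome 12 had -0.12 to 0.79. Of these 9, 2 were called (22.2%) and 6 had an adjusted p under 0.05, where 41.4% of the genes tested on chromosome 5 and 30.4% of those on chromosome 12 were called. CCT8 in RPE1* 21/3 stood at 0.45, with a chromosome median of 0.56 over 126 genes. In HCT116* 8/3 c7 HSF1 had -0.02 (95% interval -0.26 to 0.22) and BAG4 0.31 (0.07 to 0.56). The genes of chromosome 8 were not raised evenly there: those up to 60 Mb, where BAG4 lies, had a median of 0.45 and those from 110 Mb, where HSF1 lies, one of -0.03.

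For 3 pairs of lines, which share the cell of origin or the gain of chromosome 5, the difference of the log2 fold changes was tested, with adjustment over all genes measured in both tables and the same thresholds. The 2 comparisons of a pair share no library, and other pairs of lines were not tested. Between HCT116 5/4 and HCT116* 8/3 c7 the fold change differed for 10 of 57 genes (17.5%, against 18.9% of all 13570 genes). The difference was positive for HSPA4 (0.83), HSPA9 (0.98), DNAJB6 (1.08) and PFDN1 (0.87) and negative for TRAP1, BAG1, AHSA1, FKBP4, FKBP5 and CHORDC1, from -0.74 (FKBP4) to -1.92 (CHORDC1, 95% interval -2.54 to -1.30, adjusted p = 4.39e-08 by the Wald-type test). With the prior undone the same 10 genes differed. The difference was not called for CCT5, HSPH1 or HSP90AB1, the other genes that had been called in HCT116 5/4.

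Between the lines derived from RPE1 the fold change differed for 5 of 56 genes (8.93%, against 9.32% of all 12923 genes): HSPA8 (1.02), HSPA4 (0.68), CCT2 (0.84) and PFDN5 (0.80) were higher in RPE1 5/3 12/3 than in RPE1* 21/3. HSPA2 was lower in it by 1.19 on the log2 scale (95% interval of the difference -1.82 to -0.56, adjusted p = 0.00478 by the Wald-type test), with -0.52 in RPE1 5/3 12/3 and 0.67 in RPE1* 21/3, neither of which was called on its own. CCT5 (difference 0.76, 95% interval 0.13 to 1.39, adjusted p = 0.133 by the Wald-type test) and CHORDC1 (0.38, -0.18 to 0.93, adjusted p = 0.57), both called in RPE1 5/3 12/3, were not called as different.

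HCT116 5/4 and RPE1 5/3 12/3 both gained chromosome 5. The fold change differed between them for 9 of 56 genes (16.1%, against 18.5% of all 12273 genes), and HSPH1 (1.03) and DNAJB6 (1.07) were higher in HCT116 5/4. Lower there were HSP90AB1 (-0.93), HSPA8 (-0.84), TRAP1 (-1.15), BAG1 (-1.20), FKBP4 (-0.85), FKBP5 (-1.53) and CHORDC1 (-2.36, 95% interval -3.05 to -1.67, adjusted p = 9.99e-10 by the Wald-type test). None of these 9 lies on chromosome 5, but FKBP4 is on chromosome 12, gained in RPE1 5/3 12/3, and HSPA8 and CHORDC1 are on the chromosome 11 arm raised in that line. The 4 genes that do lie there had 0.93 and 0.59 (HSPA4), 1.04 and 0.56 (HSPA9), 0.70 and 0.70 (CCT5) and 0.93 and 0.50 (PFDN1) in HCT116 5/4 and RPE1 5/3 12/3, and no difference was called among them. The extra copies number 2 in the first line and 1 in the second.

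**Figure D4:**
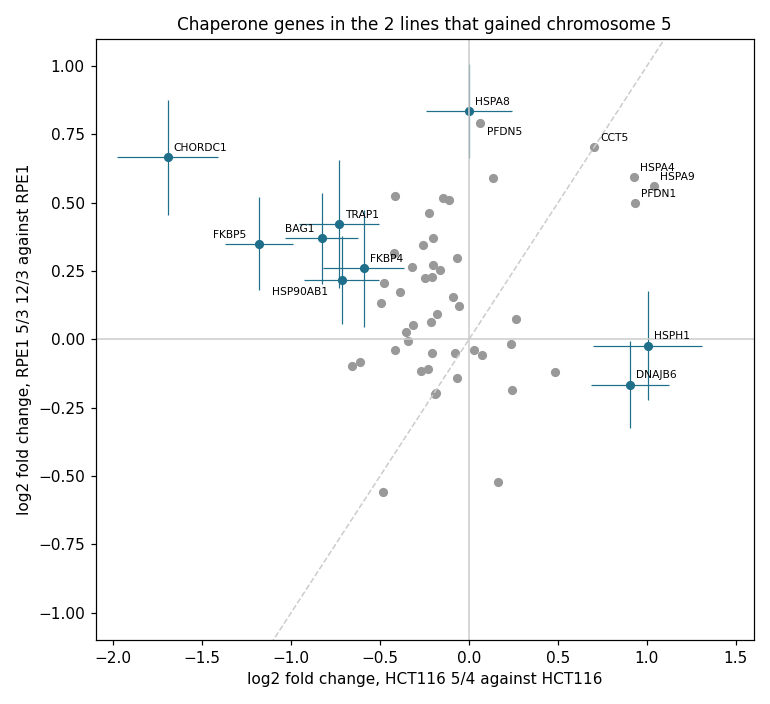
Log2 fold change over the parental line in HCT116 5/4 (horizontal axis) and in RPE1 5/3 12/3 (vertical axis) for the 56 genes measured in both. Blue points with bars of 1 standard error are the 9 genes whose fold change differed between the lines, and the dashed line marks equal values. CHORDC1 lies at the upper left (-1.69 and 0.67), and the 4 genes of chromosome 5 lie at the upper right.

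Related genes outside the list were read in 4 further groups, and in the first 3 of them the called shares were 5.26%, 16% and 9.09% in HCT116 5/4, against 20.6% of all genes, and 10.5%, 8.33% and 9.09% in RPE1 5/3 12/3, against 16.6%. Of 20 other HSP90 cochaperones and members of the R2TP complex, AARSD1 fell in HCT116 5/4 (-0.63, adjusted p = 0.0185), while NUDCD2, on chromosome 5, rose in RPE1 5/3 12/3 (0.83, adjusted p = 0.000115). Of 25 other J-domain proteins and partners of HSP70, 3 rose and 1 fell in HCT116 5/4. Those that rose, DNAJC18 (1.33), DNAJC21 (1.07) and GRPEL2 (0.62), are all on chromosome 5, and DNAJC12, a partner of the aromatic amino acid hydroxylases, fell by 2.70 on the log2 scale. DNAJC18 rose (1.04) and DNAJB5 fell by 1.04 in RPE1 5/3 12/3. Of 11 partners of CCT and prefoldin and tubulin folding cofactors, the beta-tubulin cofactor TBCA, on chromosome 5, was the only one called, and it rose in HCT116 5/4 (0.67) and RPE1 5/3 12/3 (0.76).

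The fourth group holds other genes named as small heat shock proteins, a family known for binding unfolded chains without ATP. The name alone does not show that each of them works this way. Of the 5 tested in RPE1 5/3 12/3, 4 fell (80%, against 8.47% of all genes): HSPB6 (log2 fold change -2.63), HSPB7 (-2.09), HSPB2 (-1.99) and CRYAB, the alpha-B crystallin (-1.84). The mean normalized counts of these 4 were between 32.6 (HSPB2) and 259 (CRYAB), low beside the 6510 of HSPB1. HSPB11 had 0.25 and was not called. The group was chosen with earlier results of these data known, so the shares given for it here are no test of it. HSPB2 and CRYAB are neighbours on the long arm of chromosome 11, whose median in RPE1 5/3 12/3 was 0.40. In RPE1* 21/3 1 of the 4 tested was called (25%, against 3.31% of all genes): HSPB7 had a log2 fold change of -4.83 ± 0.48 (adjusted p = 1.01e-20), at a mean of 52.2. At such a fold change that mean, by which HSPB7 passed the minimum, rests mostly on the parental libraries. HSPB6 (0.87), HSPB11 (0.10) and CRYAB (-0.11) were not called in RPE1* 21/3. HSPB2 had -2.76 in that line at a mean of 7.78, below the minimum set for the tests. HSPB2, HSPB6 and HSPB7 are best known from heart and skeletal muscle. None of the 4 groups had a called gene in HCT116* 8/3 c7.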

How the data were processed

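Adapter removal by the authors used cutadapt, alignment to hg19 used TopHat2 2.0.10 with at most 1 location for a read, counting on exons of RefSeq genes used featureCounts 1.4.3 (no strand option is named), and each aneuploid line was set against its parent in DESeq2. The deposited files give the mean signal per gene (the authors' mean of counts divided by size factors), the log2 fold change, and as scores its standard error and the Wald statistic. The deposited p-values are those of that statistic, adjusted by the authors over all genes of a file, and these relations were checked. The files do not show the depth of single libraries, and the standard errors stand for the precision (medians from 0.138 to 0.247).

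The tables hold only the authors' own comparisons, which were used because the genes studied are rows of them. The members and lists were chosen with earlier results of these data known. All genes of the list may be named; statistics are given for genes called in a line, CCT and prefoldin subunits, genes on gained chromosomes, the heat shock factors, the main HSP70 and HSP90 genes and genes that differ between lines, and, outside the list, for the called ones. 1 of the called genes outside the list is not reported here. The tests covered genes whose mean reached 10. Intervals are 1.96 standard errors to each side. The difference of 2 fold changes was divided by the root of the summed squared standard errors, with two-sided normal p-values and Benjamini-Hochberg adjustment over all genes of both tables, and this step was tested on simulated data. Genes were placed by symbol on GRCh37 with GENCODE release 44 (95.4% to 95.8% of a table), and levels per kb use its longest principal coding transcript. A prior on the fold changes was undone from the ceiling of the standard errors, which was sharp in HCT116* 8/3 c7 (250 genes) and RPE1* 21/3 (150) and rests on 1 and 3 genes in HCT116 5/4 and RPE1 5/3 12/3. The alternatives concerned the minimum mean, the fold threshold, the adjustment, the centring and the prior. Calculations ran in Python 3.11.15 with pandas 2.3.3, numpy 2.4.6 and scipy 1.17.1, and plots were drawn with matplotlib 3.10.9.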

Additional observations from a re-analysis of the deposited data

Results flagged for a closer look

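In 24 cases the log2 fold change of a gene differed between lines by the test of the difference itself, and each value below is the first line minus the second. For HCT116 5/4 and HCT116* 8/3 c7 the differences were 0.83 for HSPA4, 0.98 for HSPA9, 1.08 for DNAJB6, 0.87 for PFDN1, -0.78 for TRAP1, -0.78 for BAG1, -0.78 for AHSA1, -0.74 for FKBP4, -0.91 for FKBP5 and -1.92 for CHORDC1. For RPE1 5/3 12/3 against RPE1* 21/3 they were 1.02 for HSPA8, 0.68 for HSPA4, 0.84 for CCT2, 0.80 for PFDN5 and -1.19 for HSPA2. For HCT116 5/4 and RPE1 5/3 12/3 they were 1.03 for HSPH1, 1.07 for DNAJB6, -0.93 for HSP90AB1, -0.84 for HSPA8, -1.15 for TRAP1, -1.20 for BAG1, -0.85 for FKBP4, -1.53 for FKBP5 and -2.36 for CHORDC1. HSPA4 and HSPA9 lie on the chromosome gained in HCT116 5/4, as does PFDN1, and CCT2, PFDN5, FKBP4 (chromosome 12) and HSPA4 (chromosome 5) on those gained in RPE1 5/3 12/3. HSPA8 and CHORDC1 lie on the raised chromosome 11 arm of that line. TRAP1, DNAJB6, BAG1, FKBP4, FKBP5 and CHORDC1 differed in HCT116 5/4 from both lines it was compared with, and these pairs share the libraries of HCT116 5/4 and HCT116.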

How the results depend on the processing

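The counts of called genes were recomputed under 7 alternatives. With a fold threshold above 1, 4 genes were called in HCT116 5/4 (2 higher and 2 lower) in place of 12, and 0 in place of 4 in RPE1 5/3 12/3. Without a fold threshold 10 genes, all higher, were called in RPE1 5/3 12/3, 6 of them on its gained chromosomes and 3 on the raised chromosome 11 arm. The other alternatives kept each count within 1.5 times, and both lines without called genes had 0 under every alternative. Centring on the genes outside the gained chromosomes raised the count of RPE1 5/3 12/3 to 6 with HSPA4 and DNAJC7, and undoing the prior or leaving out the fold threshold added FKBP4 in HCT116 5/4. Centring also added PFDN5 to the genes that differed between HCT116 5/4 and RPE1 5/3 12/3. Centring turned the sign of values near 0 that were not called: HSPA8 in HCT116 5/4 (0.0143), DNAJC7 (-0.00136) and CCT3 (-0.00241) in HCT116* 8/3 c7, and HSPH1 (0.00650), CCT3 (0.0236) and STUB1 (0.0125) in RPE1 5/3 12/3. No paired analysis was possible because the tables hold no values of single libraries, and leaving out each replicate was not run for the same reason.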
